A study of Mus musculus with 8 samples.

Results

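The constitutive 26S proteasome is described here through the mRNA of 31 of its subunits in the pancreas of Bach2KO and Bach2WT mice. The subunits were chosen by gene name. No measured value entered the rule, although earlier results of these data were known when it was made. They were 7 Psma and 7 Psmb genes for the core particle, and 6 Psmc and 11 Psmd genes for the regulatory particle. All 31 were among the 21434 genes of the deposited table, and all 31 passed the filter on low counts, which left 12820 genes for testing. Whole-pancreas mRNA of 8 untreated mice, 18 weeks old, was sequenced, with 4 mice per genotype, of which mice 1 and 2 were female and mice 3 and 4 male. Bach2KO mice were homozygous for a constitutive, whole-body deletion allele of Bach2 (C57BL/6N-Bach2tm1b(EUCOMM)Wtsi/leg), and Bach2WT mice were wild-type animals of that strain. As limits of the model, the deletion was not restricted to the pancreas, the knockout mice were smaller and had lung disease, and mice were kept at more than 1 site without a statement of where the sequenced mice came from.

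The proteasome degrades proteins that carry ubiquitin chains. Its barrel-shaped core is built from rings of α subunits, which form the gate, and rings of β subunits, which carry the proteolytic sites inside. The regulatory particle caps the barrel, where a ring of ATPases unfolds substrates and the non-ATPase subunits hold scaffolds, ubiquitin receptors and a deubiquitinating enzyme. In acinar cells, which make up most of the pancreas and secrete digestive enzymes, it also takes up misfolded proteins exported from the endoplasmic reticulum. Transcription of its genes can be raised together by the factor Nrf1, which binds antioxidant response elements, while BACH2 is a repressor that binds the closely related Maf recognition elements with small Maf proteins.

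Libraries held 72299745 to 172029360 counts on genes, and the 100 most abundant genes took 93.8% to 95.3% of them. The 31 subunits together received 19141 to 50284 counts per library, from 37 counts for the least abundant subunit in a library to 3939 for the most abundant. Acinar identity of the tissue was borne out by its markers. Their summed level was 528839 to 599942 CPM (each library's counts scaled to a common depth, TMM-normalized) in Bach2KO and 589792 to 789910 CPM in Bach2WT mice. On this scale, 12 of 14 markers were below 0 in log2 fold change (45.3% of all genes tested). At an unadjusted p under 0.05, 5 were lower (edgeR; 3.56% of all genes). These directions depend on the scale, and those on plain library totals are not given here. The counts of Bach2 itself were 3 to 16 in Bach2KO and 4 to 31 in Bach2WT libraries, too few to check the labels, and gene counts do not show whether they fall in the deleted part. In bulk tissue, fewer cells of a type and less RNA per cell cannot be told apart. The p-values set a difference against the spread between these mice.

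Upstream sequence was read for the 25 of 31 subunits with an entry in the RefSeq promoter table (assembly GRCm38.p6), and Psmb1, Psmb2, Psmb7, Psmc3, Psmd3 and Psmd7 had none. Windows from 250 bases before to 50 bases after the start were searched on both strands for 4 short motifs. The core of the antioxidant response element, TGACNNNGC, was found in 4 of 25 subunits (16%) and in 14% of all genes of the table. These were Psmb5 and Psmb6, which encode catalytic subunits, Psmc6 and Psmd12. The AP-1 core TGACTCA was in none of the subunits and in 5.95% of all genes. The longer Maf recognition core TGACTCAGC, which contains the AP-1 core and is also a case of the antioxidant response element core, was in none and in 0.503%. The CCAAT motif of the factor NF-Y was in 10 of 25 subunits (40%) and in 41.1% of all genes. A match of letters describes the window and is not a measured binding site.

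The first 250 bases of these windows are shown, 5′ to 3′ along each gene, for the 3 β subunits to which the results below return most. Capitals mark TGACNNNGC in Psmb5, where it lies 47 to 39 bases before the start, and in Psmb6, where it ends at the last base before the start. In Psmb3, capitals mark CCAAT, which occurs 85 to 81 and 43 to 39 bases before the start. All are on the GRCm38.p6 assembly, Psmb5 on the minus strand of chr14:54617996-54618245, Psmb6 on the plus strand of chr11:70525107-70525356 and Psmb3 on the plus strand of chr11:97703184-97703433.
Psmb5: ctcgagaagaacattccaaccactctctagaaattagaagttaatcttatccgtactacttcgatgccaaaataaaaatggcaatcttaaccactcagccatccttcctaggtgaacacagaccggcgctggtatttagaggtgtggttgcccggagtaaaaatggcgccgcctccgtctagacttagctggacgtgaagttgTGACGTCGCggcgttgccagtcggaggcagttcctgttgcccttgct
Psmb6: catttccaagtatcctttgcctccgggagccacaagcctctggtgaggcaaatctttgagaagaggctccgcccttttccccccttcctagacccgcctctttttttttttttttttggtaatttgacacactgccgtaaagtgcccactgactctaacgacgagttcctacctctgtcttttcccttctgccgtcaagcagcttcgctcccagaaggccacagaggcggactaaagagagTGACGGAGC
Psmb3: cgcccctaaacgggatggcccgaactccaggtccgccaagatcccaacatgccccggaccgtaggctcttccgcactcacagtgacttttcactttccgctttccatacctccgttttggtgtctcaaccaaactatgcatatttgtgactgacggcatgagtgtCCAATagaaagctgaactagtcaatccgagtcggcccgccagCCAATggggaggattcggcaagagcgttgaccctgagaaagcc

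Between genotypes, the β ring genes Psmb5 and Psmb3 had the lowest unadjusted p-values among the subunits, both lower in Bach2KO mice, and no other subunit was under 0.05 before adjustment. None of the 31 subunits passed an adjusted p of 0.05 over all genes (edgeR quasi-likelihood test, Benjamini-Hochberg adjustment; lowest adjusted p = 0.541), against 1 gene or 0.0078% of all genes tested. DESeq2 also called 0 of 31, against 75 of 21434 genes. At an unadjusted p under 0.05, 0 subunits were higher and 2 of 31 lower by either tool. In edgeR this held for 7.46% of all genes tested in either direction, 3.9% higher and 3.56% lower. The shares in DESeq2 are not given here. The log2 fold changes ran from -0.53 for Psmd1 to 0.37 for Psma1, with 19 of 31 below 0 against 45.3% of all genes. Their median was -0.08, beside 0.05 over all genes tested.

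These directions hold relative to the bulk of genes, on the TMM scale (trimmed mean of M-values), which sets most genes near no change. On plain library totals, an alternative added after seeing the data, the median of all genes moved to 0.35, only 4 of 31 subunits remained below 0, and neither Psmb5 nor Psmb3 passed an unadjusted p of 0.05. On that scale, 5 subunits were higher at an unadjusted p under 0.05, namely Psma1, Psma2, Psma5, Psmd3 and Psmd11. The share of all genes called higher on library totals is not given here, so whether these 5 exceed it is not known. As a share of all counts, the 31 subunits took 0.0262%, 0.0274%, 0.0280% and 0.0302% in Bach2KO mice 1 to 4 and 0.0284%, 0.0256%, 0.0235% and 0.0228% in Bach2WT mice 1 to 4. Bach2WT mouse 1 alone of its group lay within the Bach2KO range. Measured from the median of all genes, the core differed by -0.10 on both scales and the regulatory particle by -0.21 on both. A change of scale shifts all genes by nearly the same amount, so this agreement was fixed beforehand and is no check. The summed acinar markers averaged 570389 CPM in Bach2KO and 713488 CPM in Bach2WT mice on the TMM scale, with overlapping ranges. That is not the scale of the share of all counts, since TMM values are divided by a factor for each library. The factors were 1.18, 1.07, 1.05 and 1.16 in Bach2KO mice 1 to 4. In Bach2WT mice 1 to 4 they were 1.10, 0.858, 0.835 and 0.826, and lower factors give higher CPM. The acinar difference thus depends on the scale, and the acinar share of all counts is not given here. The part of the acinar markers in the result was not tested.

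**Figure D1:**
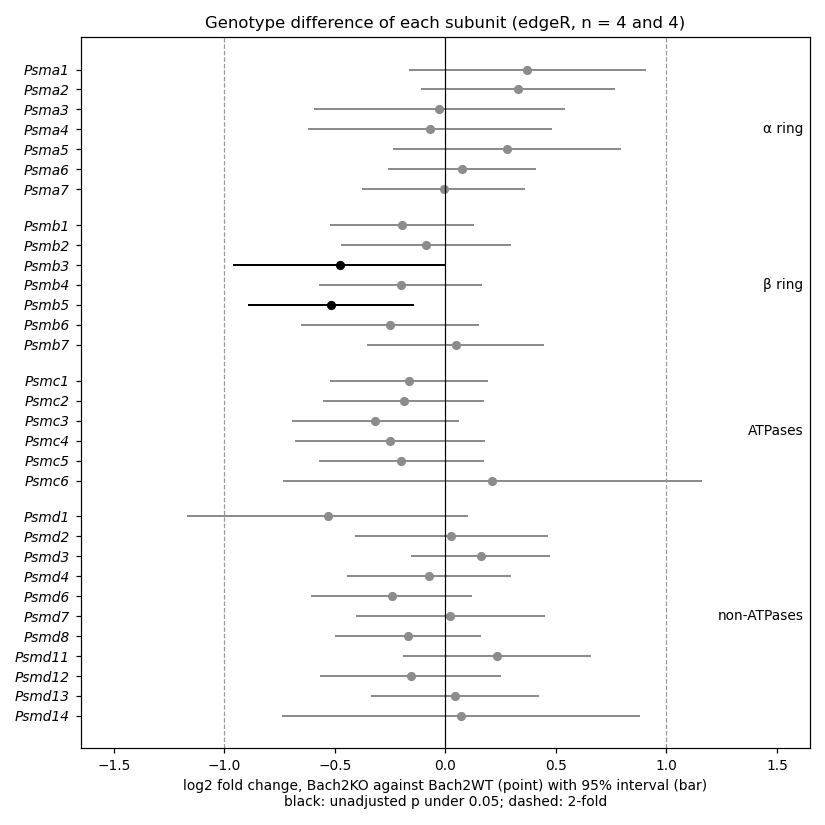
Log2 fold change of each of the 31 subunits, Bach2KO against Bach2WT (edgeR, TMM scale, n = 4 and 4), with its 95% interval as a bar, grouped by α ring, β ring, ATPases and non-ATPases. The intervals of Psmb3 and Psmb5, in black, exclude 0 before adjustment, and only those of Psmc6 and Psmd1 cross a dashed line at 2-fold.

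Changes of 2-fold or more were outside the 95% interval for 29 of 31 subunits, the exceptions being Psmc6 and Psmd1. This held for 44.5% of all genes tested and for 76.1% of the 6332 genes within the subunits' range of mean level. The narrower limit of 1.5-fold enclosed the interval of 16 of 31 subunits. Between mice of a group, the subunits had a median SD of 0.23 in log2 CPM. It was 0.50 over all genes tested and 0.34 over the genes in the same range of level. That range, 0.973 to 22.3 CPM, is wide, and genes were not matched to the subunits within it. The part of level in these differences was not tested.

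The α ring genes encode the gate of the core and showed no call in either direction, with a median log2 fold change of 0.08 and 4 of 7 above 0. On plain library totals the median was 0.36, beside 0.35 over all genes tested. Psma1, Psma2 and Psma5 were higher there at an unadjusted p under 0.05, and the share of all genes so called is not given here. The lowest adjusted p of any subunit on totals was 0.301 (edgeR). On the TMM scale, Psma2 had the lowest p-value of this ring. Its level was 4.70, 5.72, 4.53 and 3.65 CPM in Bach2KO mice 1 to 4 and 3.31, 3.89, 4.55 and 3.01 CPM in Bach2WT mice 1 to 4. Bach2KO mice 1 and 2 lay above every Bach2WT mouse and mice 3 and 4 within their range, and the log2 fold change of 0.33 ± 0.20 (SE) had an unadjusted p = 0.125 and an adjusted p = 0.777 (edgeR). On library totals it was 0.63 (unadjusted p = 0.00941, edgeR). Reads of Psma2 are uncertain to a degree, since AW209491, with 66 to 314 counts, overlaps it on the same strand. Psma1 had the highest fold change of all subunits, at 2.21 ± 0.486 CPM in Bach2KO and 1.70 ± 0.321 CPM in Bach2WT mice (SD, n = 4 each), or 0.37 on the log2 scale, and its ranges overlapped. Psma5, which has a pseudogene copy with 23 to 104 counts of its own, stood at 0.28. At the other end, Psma7 was nearly level between genotypes. Its values were 10.9, 13.8, 10.2 and 15.1 CPM in Bach2KO mice 1 to 4 and 11.6, 14.0, 13.0 and 11.7 CPM in Bach2WT mice 1 to 4. The Bach2WT range lay inside the Bach2KO range, and the 95% interval of the log2 fold change ran from -0.37 to 0.36. Psma3, Psma4 and Psma6 stood at -0.03, -0.07 and 0.08.

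The β ring holds the proteolytic sites, and 6 of its 7 genes were below 0 with a median log2 fold change of -0.20. On plain library totals this median was 0.11, so its sign depends on the scale. Psmb5 encodes the subunit with chymotrypsin-like activity, the main target of the proteasome inhibitor bortezomib, and its gene lies on chromosome 14 from 54851576 to 54855479 on the minus strand (mm39). Its level was 12.4, 14.2, 14.4 and 15.4 CPM in Bach2KO mice 1 to 4 and 15.5, 25.1, 18.4 and 21.7 CPM in Bach2WT mice 1 to 4. Every Bach2KO mouse was below every Bach2WT mouse, although the highest Bach2KO and the lowest Bach2WT mouse were nearly equal. No overlap between genotypes was seen for 1 of 31 subunits, Psmb5, against 4.49% of all genes tested in either direction, 1.92% lower and 2.57% higher. The log2 fold change was -0.52 ± 0.17 (SE), a difference of -30.1%, with an unadjusted p = 0.0100 and an adjusted p = 0.541 (edgeR). It stayed under 0.05 before adjustment when any single mouse was left out, with p from 0.00249 to 0.0415. On plain library totals the log2 fold change was -0.20 with an unadjusted p = 0.228 (edgeR). Measured from the median of all genes it was -0.56 on the TMM scale and -0.54 on totals, which the subtraction makes nearly equal beforehand.

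A share that no scaling changes, taken from the same Psmb5 counts, also kept the genotypes apart, though the order of mice within Bach2KO differed. Psmb5 made up 5.58%, 5.57%, 5.38% and 5.89% of the counts of the 31 subunits in Bach2KO mice 1 to 4. In Bach2WT mice 1 to 4 the shares were 6.01%, 8.42%, 6.53% and 7.87%. The lowest Bach2WT mouse again lay just above the highest Bach2KO mouse. This share was computed after the values of Psmb5 were seen and is given with no test.

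Psmb3 encodes a structural β subunit without a catalytic site and lies on chromosome 11 from 97594225 to 97604326 on the plus strand (mm39). It stood at 4.73, 8.39, 9.05 and 7.63 CPM in Bach2KO mice 1 to 4 and at 7.43, 10.6, 11.1 and 12.3 CPM in Bach2WT mice 1 to 4. Mouse 1 was the lowest of both groups, and 3 of 4 Bach2KO mice were above Bach2WT mouse 1. The log2 fold change of -0.48 ± 0.22 (SE) had an unadjusted p = 0.0489 and an adjusted p = 0.668 (edgeR). Without Bach2KO mouse 1 it was -0.31 (edgeR, unadjusted p = 0.131). It also missed 0.05 without Bach2KO mouse 2 or 4 or without Bach2WT mouse 2, 3 or 4, at log2 fold changes from -0.54 to -0.39, which include values as large as with all mice.

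The other catalytic β subunits were not called. Psmb6, the caspase-like subunit, was at 20.4 ± 4.21 CPM in Bach2KO and 24.2 ± 4.13 CPM in Bach2WT mice (SD, n = 4 each). On the log2 scale it differed by -0.25, with a 95% interval from -0.65 to 0.15. Psmb7, the trypsin-like subunit, had the highest p-value of its ring. It stood at 4.24, 4.86, 5.01 and 6.17 CPM in Bach2KO mice 1 to 4 and at 4.06, 5.88, 4.69 and 4.997 CPM in Bach2WT mice 1 to 4. The groups overlapped throughout, with a log2 fold change of 0.05 and an interval from -0.35 to 0.44. Nek6, on the opposite strand, overlaps Psmb7 and had 90 to 278 counts. The structural subunits Psmb1, Psmb2 and Psmb4 were at -0.20, -0.09 and -0.20. Whether Psmb5 differed from its ring neighbours was not tested.

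**Figure D2:**
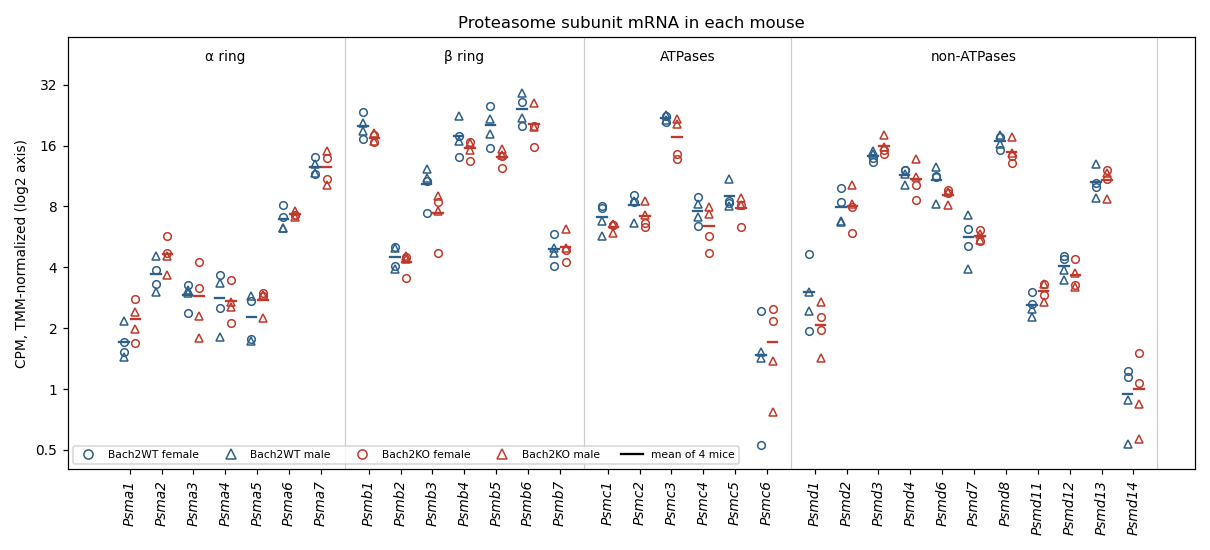
Level of each of the 31 subunits in every mouse, in CPM after TMM normalization on a log2 axis, with Bach2WT in blue and Bach2KO in red, females as circles, males as triangles and the mean of 4 mice as a bar. The colours overlap in every column but that of Psmb5.

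The ring of ATPases, which unfolds substrates and opens the gate, had 5 of 6 genes below 0 and a median log2 fold change of -0.19 (0.10 on plain library totals), and none was called. Psmc3 had the lowest p-value. Its level was 13.7, 14.5, 21.6 and 20.4 CPM in Bach2KO mice 1 to 4 and 22.5, 20.9, 22.7 and 21.4 CPM in Bach2WT mice 1 to 4. The female Bach2KO mice were the low ones, and Bach2KO mouse 3 lay inside the Bach2WT range. The log2 fold change was -0.32 ± 0.17 (SE; unadjusted p = 0.0909, adjusted p = 0.743, edgeR), with -0.62 in females and -0.07 in males. It passed 0.05 before adjustment with sex as a covariate. Slc39a13 overlaps Psmc3 on the opposite strand, with 221 to 487 counts. Psmc1, Psmc2, Psmc4 and Psmc5 lay close together at -0.16, -0.19, -0.25 and -0.20. Psmc6 was the exception at 0.21 and the most variable of all subunits. Its level was 2.48, 2.17, 0.766 and 1.37 CPM in Bach2KO mice 1 to 4 and 2.42, 0.526, 1.43 and 1.53 CPM in Bach2WT mice 1 to 4. High and low mice occurred in both groups, and the 95% interval from -0.73 to 1.16 includes a 2-fold increase.

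Among the 11 non-ATPase subunits, 6 were above 0 and 5 below, with a median log2 fold change of 0.02. Its sign depended on the setting: it was 0.31 on plain library totals, below 0 with RLE or upper quartile factors, in DESeq2 and with length or GC content correction (to -0.08), and below 0 without Bach2KO mouse 2 or 3 or Bach2WT mouse 2, 3 or 4 (to -0.12). Psmd1 and Psmd2 are the large scaffolds of the base. Psmd1 had the lowest fold change of all 31 subunits. Its values were 2.26, 1.96, 1.43 and 2.68 CPM in Bach2KO mice 1 to 4 and 1.94, 4.68, 2.43 and 3.02 CPM in Bach2WT mice 1 to 4. Bach2WT mouse 2 was high, while Bach2WT mouse 1 lay inside the Bach2KO range. The log2 fold change was -0.53 ± 0.29 (SE; unadjusted p = 0.0914, adjusted p = 0.743, edgeR), with an interval from -1.16 to 0.10. Psmd4, a ubiquitin receptor, stood at -0.08, and Psmd14, the deubiquitinating enzyme that removes ubiquitin chains before degradation, at 0.07 with an interval from -0.74 to 0.88.

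None of the lid subunits passed the test. Psmd7, the structural partner of Psmd14, had the highest p-value among the non-ATPases. It was at 5.39, 6.14, 5.47 and 5.88 CPM in Bach2KO mice 1 to 4 and at 6.17, 5.10, 7.27 and 3.93 CPM in Bach2WT mice 1 to 4. The Bach2KO mice lay inside the wider Bach2WT range, and the log2 fold change was 0.02. Psmd3, Psmd11 and Psmd13 stood at 0.16, 0.23 and 0.04, and Psmd6, Psmd8 and Psmd12 at -0.24, -0.17 and -0.16. Sirt3 and the pseudogene Gm15542, with up to 177 and 72 counts, overlap Psmd13.

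Summed over the subunits, the β ring held 70.8 to 92.4 CPM in Bach2KO and 82.2 to 114 CPM in Bach2WT mice. The ATPases held 40.0 to 52.7 CPM in Bach2KO and 50.3 to 58.6 CPM in Bach2WT mice. The ranges of both overlapped, as did those of the α ring (31.9 to 40.3 and 29.1 to 35.4 CPM) and of the non-ATPases (79.1 to 90.3 and 83.0 to 92.8 CPM). All 31 subunits together came to 252 ± 19.8 CPM in Bach2KO and 278 ± 16.7 CPM in Bach2WT mice (SD, n = 4 each). By share of the subunits' own counts, the β ring took 33.4 ± 1.20% in Bach2KO and 36.6 ± 3.98% in Bach2WT mice, and the α ring 14.0 ± 1.64% and 11.8 ± 0.91%. These shares do not depend on the scale, overlapped between genotypes and are given with no test.

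**Figure D3:**
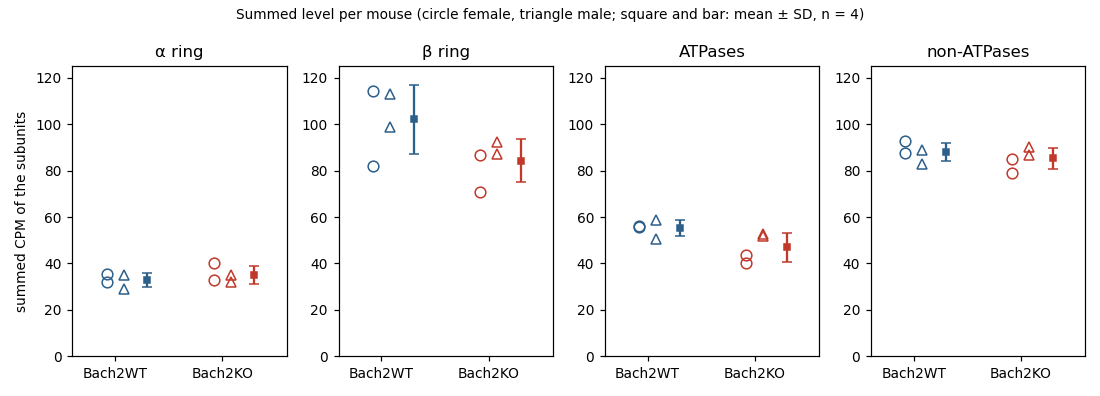
Summed level in CPM (TMM scale) of the α ring, β ring, ATPase and non-ATPase subunits in each mouse, with circles for females, triangles for males and squares with bars for the mean ± SD of 4 mice. The ranges overlap in every panel, and the 2 lowest ATPase sums are those of the female Bach2KO mice.

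Levels of different subunits were compared per kilobase of gene length as given in the deposited table. Psmb5 was highest at 13.8 to 27.9 CPM per kb over the 8 mice (mean 19.1), ahead of the other β genes Psmb6 at 11.9 and Psmb4 at 8.54. Next came the ATPases Psmc3 at 7.56 and Psmc5 at 6.03. The low end was held by Psma1 at 0.664, Psmc6 at 0.454, Psmd11 at 0.442, Psmd1 at 0.351 and Psmd14 at 0.345 CPM per kb. Highest and lowest means were 55.3-fold apart. The medians were 1.17 for the α ring, 4.09 for the β ring, 3.37 for the ATPases and 2.51 CPM per kb for the non-ATPases, and all 30 pairs of neighbours in the order overlapped in range. Within a subunit, the 8 mice varied least for Psma6, with a coefficient of variation of 8.52%, and most for Psmc6, Psmd1 and Psmd14 (45.9%, 38.8% and 34.3%), which were among the 4 lowest subunits.

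The order depends in part on the length used. With the median length of the coding transcripts in its place, an alternative added after seeing the data, Psmb6 was highest at 28.0 CPM per kb and Psmd14 again lowest at 0.631, a 44.3-fold range. The orders correlated with a Spearman rho of 0.935 over 31 genes, which share libraries and counts. The gap between the core rings was present with both lengths, the medians being 2.03 and 11.6 CPM per kb for α and β on transcript length.

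**Figure D4:**
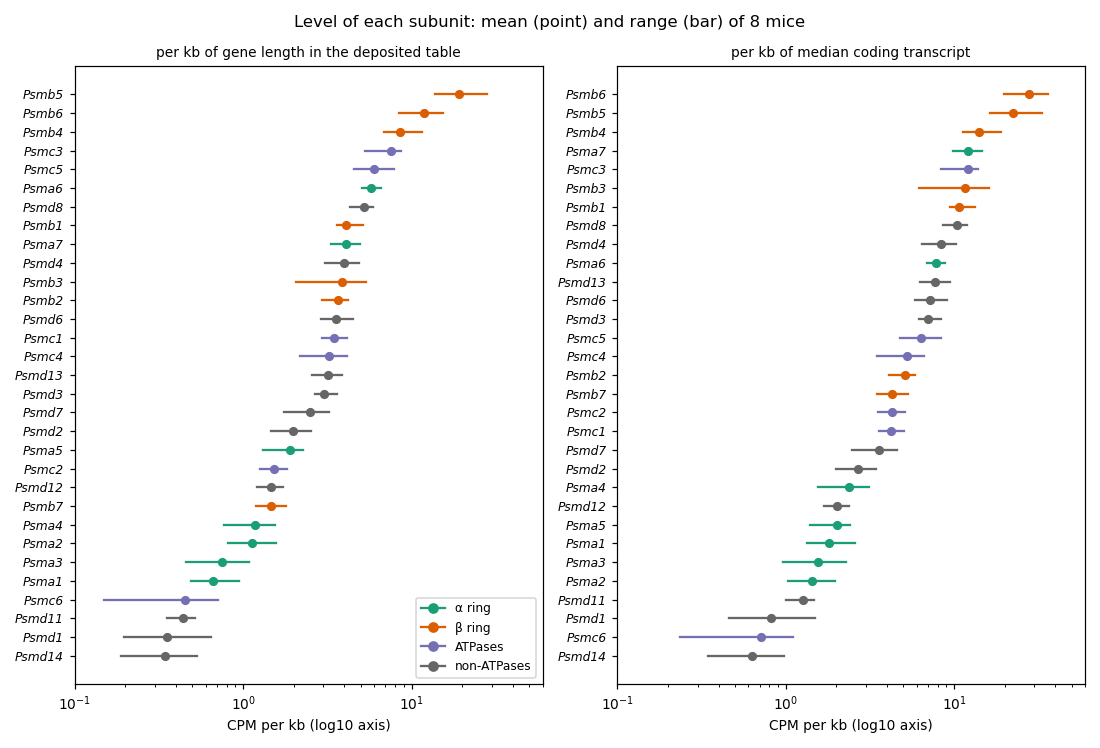
Mean (point) and range (bar) over 8 mice of the level of each subunit in CPM per kb on a log10 axis, with the gene length of the deposited table on the left and the median coding transcript length on the right, coloured by ring or particle. β subunits lead in both panels, and Psmd14 closes both.

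Sex was the other contrast of the design. In a fit with genotype, 1 of 31 subunits differed between males and females at an unadjusted p under 0.05, against 5.29% of all genes tested, and 0 after adjustment (0.0312% of all genes; DESeq2 also 0). This was Psmd14, at 0.704 CPM in males and 1.24 CPM in females on average, a log2 difference of -0.80 ± 0.32 (SE; male minus female, unadjusted p = 0.0255, adjusted p = 0.890, edgeR). Its values were 1.08, 1.51, 0.568 and 0.840 CPM in Bach2KO mice 1 to 4 and 1.14, 1.23, 0.877 and 0.533 CPM in Bach2WT mice 1 to 4. All 4 males were below all 4 females, at 37 to 174 counts per library. The share of all genes that separate the sexes in this way was not computed.

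The genotype difference itself was compared between sexes by an interaction term, with 2 mice per cell. At an unadjusted p under 0.05, 1 of 31 subunits showed one, against 6.14% of all genes tested, and 0 did after adjustment (0% of all genes; 14 genes but 0 subunits in DESeq2). It was Psmd2, at 5.88 and 7.97 CPM in female Bach2KO mice, 8.41 and 9.85 CPM in female Bach2WT mice, 10.2 and 8.26 CPM in male Bach2KO mice, and 6.76 and 6.67 CPM in male Bach2WT mice. Both female Bach2KO mice were below both female Bach2WT mice, and the males were in the opposite order. The log2 differences were -0.41 in females and 0.45 in males, and their difference was 0.86 ± 0.34 (SE; unadjusted p = 0.0277, adjusted p = 0.807, edgeR). For the ATPases the median log2 difference was -0.37 in females and -0.04 in males, and for the non-ATPases -0.24 and 0.01, beside 0.06 and 0.02 over all genes tested. For the β ring it was -0.21 and -0.16, and for the α ring 0.39 and 0.14.

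The constitutive catalytic subunits have inducible counterparts, Psmb8 for Psmb5, Psmb9 for Psmb6 and Psmb10 for Psmb7, which replace them in the immunoproteasome. Within each library, ratios of counts per kb are free of scaling. Psmb8 was 2.55%, 2.86%, 5.23% and 2.59% of Psmb5 in Bach2KO mice 1 to 4 and 2.00%, 1.25%, 0.363% and 0.618% in Bach2WT mice 1 to 4. The genotypes did not overlap, and the Bach2WT males were lowest. The log2 ratio was -4.99 ± 0.49 in Bach2KO and -6.85 ± 1.09 in Bach2WT mice (SD, n = 4 each), a 3.65-fold difference (two-sided exact permutation test, p = 0.0286, the smallest this design allows, and 0.0429 adjusted over the 3 ratios). By sex, the log2 difference was 0.77 in females and 2.96 in males, and the interaction of sex and genotype for Psmb8 itself was 2.33 (unadjusted p = 0.00471, adjusted p = 0.793, edgeR).

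Psmb9 was 4.24%, 4.64%, 4.16% and 3.67% of Psmb6 in Bach2KO mice 1 to 4 and 3.40%, 1.08%, 1.14% and 0.966% in Bach2WT mice 1 to 4. All Bach2KO ratios were above all Bach2WT ratios, with Bach2WT mouse 1 close below. The difference was 2.93-fold, with an exact permutation p = 0.0286 and 0.0429 adjusted over the 3 ratios (n = 4 and 4). Taken alone, Psmb8 had a log2 fold change of 1.18 (unadjusted p = 0.0230, adjusted p = 0.627) and Psmb9 of 1.19 (unadjusted p = 0.00571, adjusted p = 0.529; edgeR), and neither passed the adjusted threshold. Psmb8 and Psmb9 had 35 to 289 and 38 to 272 counts per library, and Tap1, on the opposite strand, overlaps Psmb9. Markers of T cells summed to 0.809 to 2.84 CPM in Bach2KO and 0.187 to 2.15 CPM in Bach2WT mice, with 6 of 6 tested above 0 and none called at an unadjusted p under 0.05. Macrophage markers summed to 21.5 to 32.2 and 15.9 to 28.9 CPM, with 5 of 8 above 0 and 2 called higher. B cell markers had 3 of 3 tested below 0 and none called, with summed levels of 0.0264 to 1.93 CPM in Bach2KO and 0.320 to 4.88 CPM in Bach2WT. Lymphoid tissue markers had 2 of 3 tested below 0 and 1 called higher, with sums of 0.882 to 6.52 and 0.317 to 4.95 CPM. Of all genes tested, 3.9% were higher and 3.56% lower at an unadjusted p under 0.05, and 45.3% were below 0. None of these markers passed adjustment, and their part in the ratios was not tested.

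Psmb10 behaved unlike the other inducible genes. It stood 27.3-, 28.6-, 42.4- and 24.4-fold above Psmb7 per kb in Bach2KO mice 1 to 4 and 33.6-, 40.8-, 38.5- and 46.8-fold above it in Bach2WT mice 1 to 4. Bach2KO mouse 3 lay within the Bach2WT range, and the log2 difference of -0.40 had an exact permutation p = 0.114 (n = 4 and 4; 0.114 adjusted). At 33.8 to 70.0 CPM per kb, Psmb10 was above all 31 constitutive subunits. Its gene lies 1872 bases from Ctrl, an acinar protease gene on the same strand with 2361066 to 7894866 counts per library, of which the Psmb10 counts amounted to 0.160% to 0.309%. Whether reads of Ctrl reach Psmb10 was not tested.

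**Figure D5:**
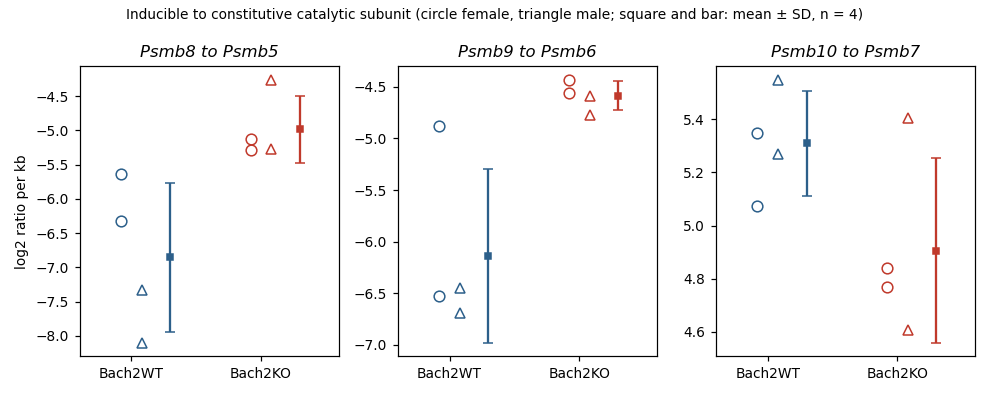
Log2 ratio of counts per kb of each inducible catalytic subunit to its constitutive counterpart in every mouse, with circles for females, triangles for males and squares with bars for the mean ± SD of 4 mice. Bach2KO mice lie above Bach2WT mice for Psmb8 to Psmb5 and Psmb9 to Psmb6, and the groups overlap for Psmb10 to Psmb7, each panel having its own axis range.

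Few genes around the proteasome passed the test. Of 11 other regulatory subunits and associated proteins, 5 activators and inhibitors, 5 core assembly chaperones and 10 genes of the Nrf1 axis, none passed an unadjusted p of 0.05, against 7.46% of all genes tested. Their median log2 fold changes were -0.05, 0.06, 0.05 and 0.12. Pomp, the chaperone that matures the β ring, stood at 0.05, the activator gene Psme1 at 0.06, and Nfe2l1, which encodes Nrf1, at 0.15. Nploc4, a cofactor of the unfolding enzyme Vcp, was lower in every Bach2KO than in every Bach2WT mouse (-0.28, unadjusted p = 0.171, edgeR). Such separation was seen for 1.92% of all genes tested, and Bach2KO mouse 4 at 6.14 CPM and Bach2WT mouse 1 at 6.17 CPM were nearly equal. Of 11 genes of ubiquitin supply and delivery, 1 was higher and 1 lower at an unadjusted p under 0.05, against 3.9% higher and 3.56% lower of all genes tested, and the median was -0.25.

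The higher one was Rps27a, which encodes a ubiquitin fused to a ribosomal protein. It stood at 49.4, 72.7, 64.4 and 83.6 CPM in Bach2KO mice 1 to 4 and at 34.1, 38.8, 40.9 and 33.5 CPM in Bach2WT mice 1 to 4. All Bach2KO mice were above all Bach2WT mice, as for 2.57% of all genes tested. The log2 fold change was 0.88 ± 0.17 (SE; unadjusted p = 0.000228, adjusted p = 0.266, edgeR). The adjusted p was 0.0162 in edgeR without the filter on low counts, 0.00537 in DESeq2 without it and 0.00481 in DESeq2 on the same genes as the edgeR test, the last an alternative added after seeing the data. Over all edgeR alternatives it ran from 0.0162 to 0.617, so the call depends on both tool and filter. Rps27a has processed pseudogene copies, and how reads shared with them were counted is not given in the sources used here. Ubb, another ubiquitin precursor gene, stood at -0.24. Ubqln1, a shuttle that carries ubiquitinated proteins to the proteasome, was lower at -0.48 (unadjusted p = 0.0402, adjusted p = 0.663, edgeR), with overlapping ranges.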

How the data were processed

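Pancreatic tissue of 8 mice was sequenced as mRNA libraries in paired-end mode. According to the submitters' processing notes, the authors used fastp, HISAT2 2.2.1 and featureCounts 2.0.6 with the mm39 genome, while the annotation release, strand setting and handling of shared reads are not given in the sources used here. The authors deposited counts per gene and library without normalization, which were the values used. Beside them the authors deposited a normalized signal, in which a library's counts share 1 divisor, FPKM made from that signal, and the results of their own genotype comparison as log2 fold changes with raw p-values and adjusted ones, all unused here. Even counts made up 58.9% to 62.0% of values, so that read pairs may have been counted as 2, and depth is then overstated.

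Genotypes were compared with edgeR 4.0.16 (R 4.3.3; quasi-likelihood test, TMM factors, filterByExpr, no covariate, 8 mice), with Benjamini-Hochberg adjustment over 12820 genes. Sex and the interaction were further terms. CPM are TMM-normalized, log2 CPM used a prior count of 2, and the SE is the log2 fold change over the root of F. Ratios were compared with exact permutation tests (scipy 1.17.1). The procedure was checked on simulated counts. Alternatives were DESeq2 1.42.0 without the count filter and, added after seeing the data, on the filtered genes, other factors, filters and library sizes, length and GC content correction (loess span 0.3), sex as a covariate, a replicate block and leaving out each mouse. All 31 subunits and all genes of the surrounding lists were named by rule, with values per mouse for the lowest and highest p of each ring, ring of ATPases and set of non-ATPases, for p under 0.05, and for the extremes of level. Nploc4 and Psma1 were added to these with their values known. The members and lists were chosen with earlier results of these data known. Promoters came from RefSeq, and coding transcripts from GENCODE M21. Psma8 was below the count filter, and some genes of the surrounding lists are not reported here.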

Additional observations from a re-analysis of the deposited data

Results flagged for a closer look

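In 3 of 62 groups of 4 mice (31 subunits in each genotype), 1 mouse lay far from the others by Dixon's test at 95%, which chance alone gives in about 1 of 20 groups. Psma5 was at 2.25 CPM in Bach2KO mouse 4 and 2.90 to 2.98 CPM in the other Bach2KO mice. Psmb2 was at 3.55 CPM in Bach2KO mouse 1 and 4.42 to 4.54 CPM in the others. Psmc1 was at 5.89 CPM in Bach2KO mouse 3 and 6.45 to 6.56 CPM in the others. The genotype difference of Psmd2 went in opposite directions in females and males without overlap in either sex, with an interaction of 0.86 on the log2 scale that did not pass adjustment (edgeR, adjusted p = 0.807). With 2 mice per sex and genotype, such a pattern can arise by chance, and its share over all genes was not computed.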

How the results depend on the processing

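No subunit passed an adjusted p of 0.05 for genotype, sex or interaction under any alternative run. The number of subunits at an unadjusted p under 0.05, 2 as reported, was 1 to 4 with single mice left out: 1 (Psmb5) without Bach2KO mouse 1, 2 or 4 or Bach2WT mouse 2 or 3, and 4 without Bach2KO mouse 3. On library totals it was 5, all higher, with a median of 0.35 over all genes tested and the share of all genes called not given here. The medians of the core and the regulatory particle were then 0.25 and 0.14. With single mice left out these medians ran from -0.16 to 0.01, above 0 without Bach2KO mouse 1 or Bach2WT mouse 2, and from -0.18 to -0.09. Genes past the adjusted threshold were 75 in DESeq2, run without the filter on low counts, 58 in DESeq2 on the genes that passed it (added after seeing the data), 73 in edgeR without the filter, and 0 with at least 10 counts in every mouse, GC content correction, sex as a covariate and every mouse left out (0 to 0). For sex, 4 genes as reported became 19 in DESeq2 without the filter, 152 in edgeR without the filter and 2 to 9 with single mice left out, and for the interaction 0 became 14, 92 and 0 to 6. The log2 difference of the Psmb8 to Psmb5 ratio was 0.77 in females, 2.96 in males and 1.45 to 2.27 with single mice left out, and that of Psmb9 to Psmb6 1.37 to 1.97. With 7 mice the exact permutation test cannot go below p = 0.0571, so these losses say nothing of stability. The causes of the other changes were not tested. Of 620 values of single subunits, 601 kept their side of the unadjusted threshold, 8 lost it and 11 gained it.

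Mice of the same number correlated at 0.21, -0.03, -0.04 and -0.05 in their deviations from the group means, the first being the highest value between any Bach2KO and Bach2WT mouse. The labels name no pairing, and these correlations do not decide whether the mice were paired. With the replicate block, 2 subunits were at an unadjusted p under 0.05, as without it, and 0 genes passed adjustment. The widest intervals were those of Psmc6, Psmd14 and Psmd1, with 58 to 402, 37 to 174 and 108 to 614 counts per library. Psma1, with 100 to 382 counts, had a narrower one than Psmd1.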
